A study of Homo sapiens with 6 samples.

Results

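Gene expression was compared between MDA-MB-231 cells that had received the miR-200a mimic together with an ELK3 expression plasmid and MDA-MB-231 cells that had received a negative control (NC) mimic, to describe which genes were not at the control level when ELK3 was supplied along with the microRNA. All libraries that the labels give to these 2 groups were used, 2 of each, which makes 4 of the 6 libraries of the series. The other 2 libraries, which received the miR-200a mimic alone, are shown beside them. MDA-MB-231 is an established human line of triple-negative breast cancer, which lacks the estrogen and progesterone receptors and HER2 amplification and has a mesenchymal, invasive phenotype. Cells were harvested 48 h after transfection. The miR-200a mimic was used at 100 nM and the plasmid at 30 ng, and the dose of the NC mimic is not given. The labels name the plasmid as pcDNA3.1 Hygro(+)-ELK3 in a field and as pcDNA3.1-Flag-ELK3 in another, and the methods of the study say that it carries the coding region of ELK3 without its own 3′UTR. No empty vector is mentioned for the NC mimic or the miR-200a group, so transfection of a plasmid and expression of ELK3 cannot be told apart here. Nothing in the labels says whether the replicates came from separate cultures, so the p-values below measure the spread between these libraries, which may be technical.

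MicroRNAs of the miR-200 family are short RNAs that pair through their seed, the bases near the 5′ end, with sites in 3′UTRs and lower the stability or translation of those transcripts. They are best known for holding epithelial cells in the epithelial state, mostly by repressing ZEB1 and ZEB2, and are low in mesenchymal carcinoma cells. ELK3 is a ternary complex factor of the ETS family, which binds DNA together with serum response factor (SRF) at promoters of immediate-early genes such as EGR1 and FOS, where it represses transcription until it is phosphorylated by the ERK pathway.

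The mature miR-200a-3p of RefSeq, from chr1:1167916-1167937 on the plus strand of GRCh38.p14, is shown first with its seed (bases 2 to 8) in capitals, because every match discussed below is to that seed. It is followed by matches in 3′UTRs of the genes ELK3, ZEB1, TGFB2, FOSB, CCNG1 and MPZL2. Capitals there mark the 8 bases that match the seed with an A opposite its first base (CAGTGTTA, an 8mer, in GENCODE release 29 on GRCh38). The 3′UTRs of TNS1, DARS and PTGS2, also named below, hold an 8mer that is not printed.
miR-200a-3p: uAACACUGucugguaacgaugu
ELK3 (chr12:96269668-96269675, plus strand, exon 5): tatgtctgcttaatCAGTGTTAaactgc
ZEB1 (chr10:31528797-31528804, plus strand, exon 9): gagatttgatttaaCAGTGTTAtgttaa
TGFB2 (chr1:218441471-218441478, plus strand, exon 7): gagccttggttcatCAGTGTTAaaaaat
FOSB (chr19:45473778-45473785, plus strand, exon 3): cttgtttctgatgaCAGTGTTAtcccaa
CCNG1 (chr5:163444705-163444712, plus strand, exon 7): gaatgtaagaagtaCAGTGTTAaagtgt
MPZL2 (chr11:118254941-118254948, minus strand, exon 6): taagacactacttaCAGTGTTAtgactt

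RNA was measured by QuantSeq 3′ mRNA sequencing, which reads polyadenylated transcripts close to their 3′ end. Each library held between 3055915 and 4868004 counts, the lowest being replicate 2 of the NC mimic. A value of 3 counts, taken as the smallest a library can show, corresponded to between 0.611 and 0.979 CPM (counts relative to the TMM-scaled library size). This floor covers counting error only. Over the 12252 genes with enough counts to be tested, the replicates with miR-200a plus ELK3 differed from each other by a root mean square of 0.545 on the log2 scale, against 0.371 between the NC mimic replicates. Libraries of the 2 groups differed from each other by 0.577 to 0.755, so that replicate 1 with miR-200a plus ELK3 was nearly as far from its own replicate as from replicate 1 of the NC mimic. The markers of the line were present in all 6 libraries (VIM, CD44, AXL, CAV1, MSN and ANXA1 at 195 CPM or more), and ESR1 and KRT20 had no counts in any library. Of the other markers taken to be absent from the line, PGR, CLDN3, PTPRC and PECAM1 had at most 13 counts in any library and ERBB3 between 7 and 27, while CLDN4 had 178.8 to 234 CPM in all 6. The level of VIM differed between the replicates, with 2158 and 2463 CPM in the NC mimic libraries and 1854 and 956 with miR-200a plus ELK3.

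The study reports that ELK3 mRNA (by qRT-PCR) and protein (by western blot) were back at the control level with the plasmid. In these 3′ end counts, ELK3 was below the control where the labels place the plasmid. Its level was 138 and 166 CPM after the NC mimic, 102 and 103 after miR-200a alone, and 96.2 and 79.2 where the label reads miR-200a plus ELK3 (means 152 ± 20.1 (SD, n = 2) and 87.7 ± 11.99 (SD, n = 2)). Both of the latter lay below both NC mimic values, which gave -0.79 on the log2 scale (standard error 0.18, adjusted p = 0.0444). The call for ELK3 was made in 11 of 14 alternative settings, with adjusted p between 0.000155 and 0.533. A plasmid transcript without the 3′UTR ends in vector sequence, and how reads from it were counted is not given in the sources used here, so the level of plasmid-derived ELK3 RNA cannot be read from these files. The libraries are therefore named by their label throughout. ZEB1, the transcription factor with the 8mer shown above and 2 further seed matches, had 129 and 112 CPM after the NC mimic, 94.5 and 83.3 after miR-200a and 91.2 and 114 after miR-200a plus ELK3, where the groups compared overlapped (log2 fold change -0.23, 95% interval -0.65 to 0.18, adjusted p = 0.458). LAMA5, a laminin chain, was at 57.7 and 62.3 CPM in the NC mimic libraries and 74.6 and 65.6 with miR-200a plus ELK3, and the 95% interval of its log2 fold change was -0.19 to 0.63 (adjusted p = 0.481). The level with miR-200a alone was 99.5 and 110.2 CPM, higher than in the other 4 libraries. TNS1, a focal adhesion protein, was near the floor with 3.12 and 2.61 CPM and 1.42 and 2.82 CPM (95% interval of the log2 fold change -1.67 to 0.77, adjusted p = 0.652), against 6.85 and 6.11 CPM with miR-200a alone. The 3′UTR of TNS1 holds an 8mer, although its level was higher with miR-200a alone. CDH1, E-cadherin, had 1 and 0 counts after the NC mimic, 11 and 12 after miR-200a and 3 and 3 after miR-200a plus ELK3, and was too low to be tested.

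**Figure D1:**
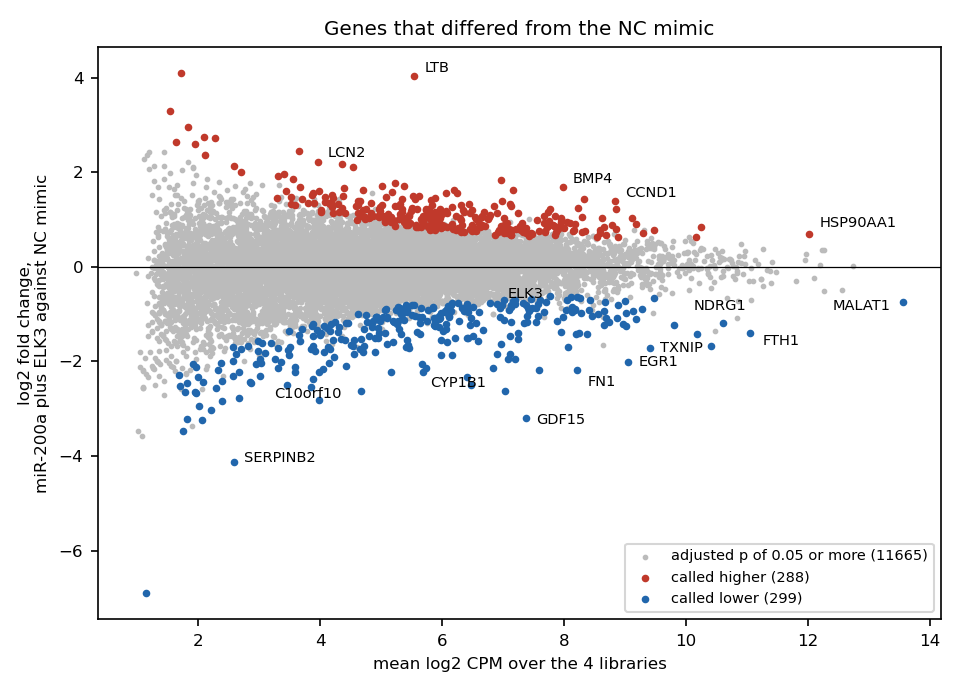
Log2 fold change of miR-200a plus ELK3 against the NC mimic (vertical axis) by mean log2 CPM over the 4 libraries (horizontal axis), with 1 point per tested gene. Red points are the 288 genes called higher and blue points the 299 called lower at an adjusted p under 0.05. GDF15 and LTB stand apart from other genes of their abundance.

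Of the 12252 genes, 587 (4.79%) were called, that is, had an adjusted p under 0.05 in edgeR's quasi-likelihood test. Of these, 288 (2.35%) were higher and 299 (2.44%) lower with miR-200a plus ELK3 than with the NC mimic. In bulk RNA, a change in each cell and a change in the share of cells that express a gene cannot be told apart. Among the large differences more were downward, with 15 genes higher and 55 lower by over 4-fold among those called. The study selected genes by an unadjusted p, a fold change and a normalized value, without giving the scale of the last. With an unadjusted p under 0.05, a change over 1.5-fold and that value read here as a mean normalized log2 count over 3, 1106 genes (9.03%) were higher and 1178 (9.61%) lower. Upper-quartile normalization shifted the split to 227 higher and 381 lower, against 288 and 299 with TMM. With all 6 libraries in a single model, which share an estimate of the spread, 876 genes (6.92%) were higher and 753 (5.95%) lower. In the same kind of 4-library fit, miR-200a alone differed from the NC mimic in 983 of 12460 genes (7.89%). Yet the miR-200a libraries lay closer to the NC mimic libraries, at a root mean square of 0.397 to 0.448 on the log2 scale. For miR-200a plus ELK3 it was 0.577 to 0.755. Replicates with miR-200a alone also differed less from each other (0.321, against 0.545). The 2 numbers of calls therefore do not rank the distances from the control. Both comparisons use the same NC mimic libraries, so values for them are set side by side for single genes and no overlap is drawn.

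How many genes were called depended on single libraries. Without replicate 2 of the NC mimic 17 genes were called, and without replicate 1 of the NC mimic 160, while leaving out replicate 1 or 2 of miR-200a plus ELK3 gave 4097 and 2234. These fits have 1 residual degree of freedom, and the lone sample of a group is assumed to vary like the other group. No function list described below had more than 2 called members without replicate 2 of the NC mimic. In 13 of 14 alternative settings, 16 genes were called each time. They were LTB, which was higher, and BHLHE40, C10orf10, CREBRF, CYP1B1, EGR1, FBXO32, FCMR, FN1, FOSB, GDF15, IL24, MRC2, MT1X, NOX5 and TXNIP, which were lower. CREBRF, FCMR and NOX5 are named here after their values were seen. In the remaining setting, limma on quantile-normalized log2 counts, no gene was called, although 2674 had an unadjusted p under 0.05.

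**Figure D2:**
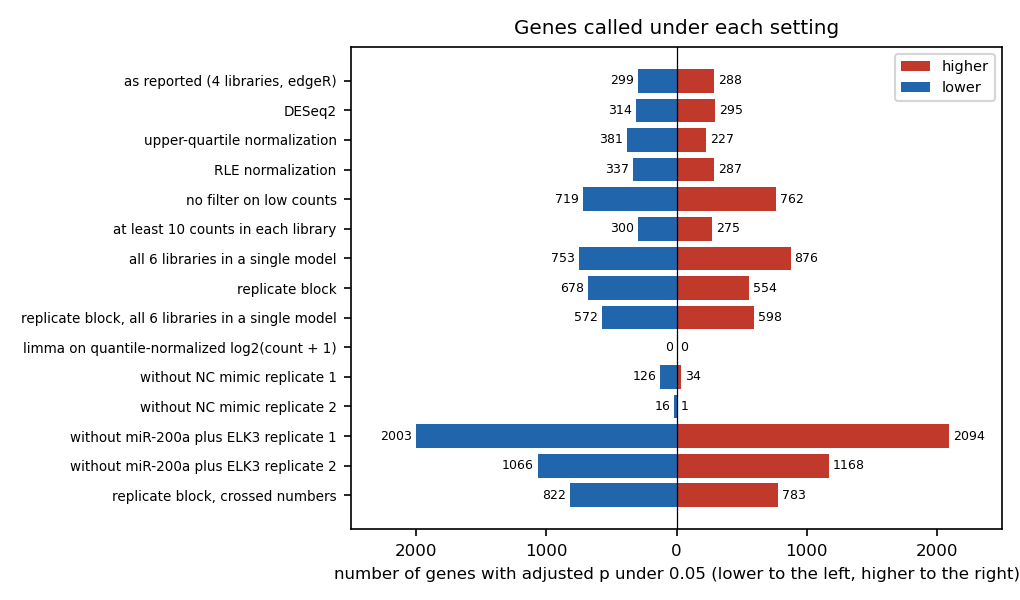
Number of genes called higher (red, to the right) and lower (blue, to the left) at an adjusted p under 0.05 under each setting. The numbers range from 0 with limma to 4097 without replicate 1 of miR-200a plus ELK3, and leaving out replicate 2 of the NC mimic left 1 gene higher and 16 lower.

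The transcription factors of the immediate-early response formed the list with the lowest median, although the FOXO list described next was lower with at least 10 counts in each library (-1.24 against -0.96) and without replicate 1 (-1.32 against -1.24) or replicate 2 (-1.11 against -0.86) of miR-200a plus ELK3. Of 22 tested genes, 9 were called lower and 1 higher, 21 had a log2 fold change below 0, and the median was -1.07, against 0.01 over all tested genes. EGR1, a zinc-finger factor induced by growth factors through SRF and its ETS partners, had 849 and 854 CPM after the NC mimic, 491 and 520.0 after miR-200a and 215 and 211 after miR-200a plus ELK3. The replicates of each group lay close together and the groups did not overlap (log2 fold change -2.003, standard error 0.15, adjusted p = 0.000888). Of all tested genes, 29.4% were higher and 27.5% lower without overlap of the 2 groups. FOSB, a subunit of the AP-1 factor whose 3′UTR holds the 8mer shown above, had 85.96 and 83.2 CPM after the NC mimic, 53.2 and 63.8 after miR-200a and 16.1 and 20.2 after miR-200a plus ELK3 (log2 fold change -2.22, standard error 0.21, adjusted p = 0.00253). JUNB, its dimer partner, had 409 and 415 CPM in the NC mimic libraries and 157 and 98.5 with miR-200a plus ELK3, a difference of -1.69 on the log2 scale (adjusted p = 0.00789). NR4A1, an orphan nuclear receptor, was 4.64-fold lower and FOSL2, another AP-1 subunit, 2.84-fold lower (adjusted p = 0.00969 and 0.0128). FOS showed the limits of 2 replicates, with 122 and 161 CPM with the NC mimic but 43.6 and 12.7 with miR-200a plus ELK3, whose values were more than 3-fold apart (log2 fold change -2.33, 95% interval -3.32 to -1.35, adjusted p = 0.0262). The member called higher was SRF, whose counts were 634 and 517 after the NC mimic and 1034 and 1146 after miR-200a plus ELK3 (log2 fold change 0.73, adjusted p = 0.0416), and it is named after its values were seen. Without replicate 2 of the NC mimic 2 members were called lower, and without replicate 1 of the NC mimic 7, with list medians of -1.11 in both cases.

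SRF binds the CArG box, and 2 copies of it lie within 250 bases before the start site of EGR1 and another 2 before that of SRF (RefSeq promoters, GRCh38.p14, plus strand). They are printed because the 2 genes stood on opposite sides of the control, and capitals mark the box.
EGR1 (chr5:138465374-138465383): cggtcctgCCATATTAGGgcttcctg
EGR1 (chr5:138465396-138465405): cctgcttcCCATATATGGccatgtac
SRF (chr6:43171239-43171248): ggggctcaCCATATAAGGagcggcct
SRF (chr6:43171259-43171268): cggcctcgCCATAAAAGGaaacattg

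A CArG box on either strand was found in the window from 250 bases before to 50 after the start in 2 of 18 immediate-early genes with a promoter in the table (11.1%), in 5 of 19 SRF-MRTF actin cytoskeleton genes (26.3%) and in 1.29% of all 27305 promoters (1.09% of those of tested genes). A match of letters does not show binding. Of the 22 tested actin cytoskeleton genes 1 was called lower and none higher (4.55%, against 4.79% called of all tested genes), with a median of -0.12. That member was ACTA2, smooth muscle actin, with 13.6 and 9.46 CPM in the NC mimic libraries and 1.42 and 2.82 with miR-200a plus ELK3, the latter close to the floor (adjusted p = 0.0244). Among the genes that the ERK pathway induces and that feed back on it, 4 of 18 were called lower and 1 higher (median -0.40). DUSP1, a phosphatase of MAP kinases, fell from 95.1 and 107 to 42.9 and 24.4 CPM (log2 fold change -1.59, adjusted p = 0.0158). SPRY2, an inhibitor of receptor tyrosine kinase signalling, and the ERK phosphatases DUSP5 and DUSP6 were lower by 2.35-, 1.88- and 1.88-fold (adjusted p = 0.0158, 0.0311 and 0.0478). ETV5, an ETS factor of the PEA3 group, went the other way, with 67.9 and 79.3 CPM after the NC mimic, 102 and 95.8 after miR-200a and 115 and 153 after miR-200a plus ELK3 (log2 fold change 0.87, adjusted p = 0.0435). ETV1, of the same group, was lower (-1.08, adjusted p = 0.0411). With ELK3 these were the 3 genes called among 16 tested ETS factors, whose median was -0.02. No member of the ERK feedback list was called without replicate 2 of the NC mimic, and 1 without replicate 1.

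The next list joins TXNIP with genes of the FOXO type, which are linked to resting or starved cells. Whether FOXO factors act on its members in these cells was not tested. All 18 tested members had a log2 fold change below 0, 9 were called lower, and the median was -1.003. TXNIP, which binds thioredoxin and limits glucose uptake, had 1033 and 1054 CPM after the NC mimic, 1221 and 1238 after miR-200a alone and 360.0 and 281 after miR-200a plus ELK3. Its level with miR-200a alone lay above the control and that with miR-200a plus ELK3 below it (log2 fold change of the latter -1.71, standard error 0.17, adjusted p = 0.00266). IRS2, an insulin receptor substrate, fell to 199.6 and 162 CPM from 481 and 488 (adjusted p = 0.0052). C10orf10, a FOXO target also known as DEPP1, had 40.8 and 47.3 CPM after the NC mimic, 51.9 and 41.8 after miR-200a and 7.34 and 6.82 after miR-200a plus ELK3, a 6.20-fold difference from the NC mimic (adjusted p = 0.00266). KLF9, a Krüppel-like factor induced by glucocorticoids, YPEL3, a gene linked to growth arrest, and BCL6, a transcriptional repressor, were 4.09-, 2.98- and 2.69-fold lower (adjusted p = 0.017, 0.00635 and 0.0141). FBXO32, the ubiquitin ligase subunit atrogin-1, which was not on this list, had 182 and 189.6 CPM in the NC mimic libraries and 48.5 and 35.96 with miR-200a plus ELK3 (log2 fold change -2.14, adjusted p = 0.00244). The list had 2 called members without replicate 2 of the NC mimic and 7 without replicate 1.

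GDF15, a secreted stress cytokine of the TGF-beta superfamily, had the smallest adjusted p among the genes named here. Its level was 325 and 276 CPM after the NC mimic, 255 and 251 after miR-200a and 33.4 and 32.2 after miR-200a plus ELK3 (means 300.2 ± 34.6 (SD, n = 2) and 32.8 ± 0.845 (SD, n = 2)). The last 2 libraries agreed closely and were 9.17-fold below the control (log2 fold change -3.20, standard error 0.18, adjusted p = 0.000272). Among the 22 tested CDK inhibitors, D cyclins and p53 targets, to which it belongs, 4 were called lower and 1 higher (median -0.11). BBC3, the pro-apoptotic protein PUMA, had 153 and 140.0 CPM in the NC mimic libraries and 53.3 and 62.7 with miR-200a plus ELK3. BTG1, an antiproliferative factor, and CCNG1, cyclin G1, a p53 target whose 3′UTR holds the 8mer shown above, were 1.66- and 2.20-fold lower, and the adjusted p of the 3 genes was 0.00866, 0.0319 and 0.0369. The member called higher was CCND1, cyclin D1, which drives entry into the cell cycle, with 247 and 256 CPM after the NC mimic, 338 and 339.9 after miR-200a and 633 and 693 after miR-200a plus ELK3. Its groups were in this order without overlap (log2 fold change against the NC mimic 1.40, standard error 0.15, adjusted p = 0.00373). Without replicate 2 of the NC mimic, GDF15 was the member of this list still called, and without replicate 1, 3 were called lower and 1 higher.

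Several matrix and mesenchymal genes were called lower than with the NC mimic. Of 20 tested transcription factors and markers of the epithelial-mesenchymal transition, 8 were called lower, none was called higher, and the median was -0.69. FN1, fibronectin, had 491 and 478 CPM after the NC mimic, 321 and 322 after miR-200a and 119 and 96.4 after miR-200a plus ELK3, in steps that did not overlap (log2 fold change -2.17, standard error 0.17, adjusted p = 0.000951). LOX and LOXL2, which crosslink collagen, fell from 90.4 and 109 to 35.05 and 19.98 CPM and from 319.8 and 330.2 to 152 and 145 CPM (adjusted p = 0.0106 and 0.00866). TGFBI, a matrix protein induced by TGF-beta, was 2.05-fold lower (adjusted p = 0.0165). VIM, vimentin, was lower in both libraries, but its replicates were far apart and it was not called (log2 fold change -0.72, 95% interval -1.32 to -0.12, adjusted p = 0.139). The median of this list was between -0.67 and -0.85 in the alternatives, and 1 member was called without replicate 2 and 4 without replicate 1 of the NC mimic.

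Among 23 tested matrix proteases and inhibitors, 4 were called lower and none higher (median -0.24). SERPINB2, an inhibitor of plasminogen activators, had 49 and 33 counts after the NC mimic, 19 and 15 after miR-200a and 4 and 1 after miR-200a plus ELK3, so that its fold change of -4.13 on the log2 scale (95% interval -5.39 to -2.88, adjusted p = 0.00883) rests on few counts. ADAM8, a membrane metalloprotease, had 459 and 420.3 CPM in the NC mimic libraries and 162 and 174 with miR-200a plus ELK3 (adjusted p = 0.00404), and PLAT, tissue plasminogen activator, 43.4 and 43.7 against 24.9 and 22.1 (adjusted p = 0.0474). MRC2, a receptor that takes up collagen, fell from 91.5 and 72.8 to 20.6 and 19.04 CPM (log2 fold change -2.06, adjusted p = 0.00301). Of 24 integrins, laminins and basement membrane genes, 3 were called lower and 1 higher. LAMA3, a chain of laminin-332, COL4A2, of type IV collagen, and COL7A1, of anchoring fibrils, were 3.53-, 1.61- and 1.83-fold lower (adjusted p = 0.0355, 0.0387 and 0.044).

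The ligands TGFB2 and BMP4 of the TGF-beta superfamily moved in opposite directions. TGFB2, whose 3′UTR holds the 8mer shown above, had 87.1 and 101 CPM after the NC mimic, 56.1 and 50.7 after miR-200a and 29.4 and 34.8 after miR-200a plus ELK3 (log2 fold change -1.56, standard error 0.20, adjusted p = 0.00766). BMP4 had 124 and 114 CPM after the NC mimic, 209 and 185 after miR-200a and 412 and 356 after miR-200a plus ELK3 (log2 fold change 1.69, standard error 0.16, adjusted p = 0.00265). For both genes the miR-200a libraries lay between the other groups. LTBP1, which holds latent TGF-beta in the matrix, and ID3, an inhibitor of basic helix-loop-helix factors, were 2.29- and 2.27-fold lower (adjusted p = 0.0302 and 0.0326). In total 3 of 24 tested genes of this pathway were called lower and 1 higher, with a median of -0.31. A log2 fold change below 0 was seen for 22 of them and above 0 for 2. Among 19 YAP-TEAD targets, CTGF (375 and 365 CPM against 222 and 163 CPM, adjusted p = 0.0268) and TGFB2 were called lower. That was 10.5% of the list, against 4.79% called of all tested genes. Of 11 ligands and receptors of the EGF receptor family, the ligand AREG and the feedback inhibitor ERRFI1 were each 2.07-fold lower (adjusted p = 0.0158 and 0.0165). The protease, integrin, TGF-beta and EGF receptor lists had at most 2 called members each without replicate 1 of the NC mimic except for TGF-beta (1 higher and 2 lower), and SERPINB2 was their single called member without replicate 2.

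Some cytokine and antigen presentation genes were called lower. In the NF-kB, acute-phase and cytokine list, 7 of 32 tested genes were called lower and 1 higher (median -0.48). IL24, a cytokine of the IL-10 family, had 232 and 199 CPM after the NC mimic, 229 and 226 after miR-200a and 51.6 and 59.7 after miR-200a plus ELK3 (log2 fold change -1.96, standard error 0.18, adjusted p = 0.00244). The miR-200a libraries lay within the control range and both miR-200a plus ELK3 libraries below it. IL1A, interleukin-1 alpha, fell from 133 and 119 to 51.4 and 38.5 CPM, and SOD2, mitochondrial superoxide dismutase and an NF-kB target, from 228 and 235 to 125 and 81.1 CPM (adjusted p = 0.00883 and 0.0236). PTGS2, cyclooxygenase-2, was close to the floor with miR-200a plus ELK3 at 1.89 and 4.47 CPM, against 18.7 and 17.6 with the NC mimic (adjusted p = 0.0158). The 3′UTR of PTGS2 holds an 8mer. IL6 had 123 and 181 CPM in the NC mimic libraries and 43.3 and 10.6 with miR-200a plus ELK3, a fall of uncertain size (95% interval of the log2 fold change -3.60 to -1.39, adjusted p = 0.0295). Of 17 genes of class I antigen presentation, 3 were called lower, and none of these was called without replicate 2 of the NC mimic. HLA-B, a classical class I gene, had 556 and 572 CPM after the NC mimic, 536 and 553 after miR-200a and 289.6 and 195 after miR-200a plus ELK3 (log2 fold change -1.22, adjusted p = 0.0158). HLA-C, another, was 1.93-fold lower (adjusted p = 0.0164), and how reads that match several of these related genes were counted is not given in the sources used here. Interferon-stimulated genes were split, with 3 of 39 called higher and 1 lower (10.3% called, against 4.79% of all tested genes, median 0.14). The lower one, GBP2, a guanylate-binding protein, had 206 and 183 CPM in the NC mimic libraries and 83.1 and 90.2 with miR-200a plus ELK3 (adjusted p = 0.00992).

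In the glycolysis and hypoxia list 6 of 30 tested genes were called lower and none higher (median -0.36). NDRG1, a hypoxia-induced gene, had 2225 and 2096 CPM after the NC mimic, 2462 and 2412 after miR-200a and 930.5 and 982 after miR-200a plus ELK3 (log2 fold change -1.18, standard error 0.14, adjusted p = 0.00632). SLC2A3, the glucose transporter GLUT3, had 121 and 126 CPM after the NC mimic, 184 and 171 after miR-200a and 50.9 and 54.5 after miR-200a plus ELK3, that is, the 2 treated groups lay on opposite sides of the control (adjusted p = 0.00969). ANKRD37, ADM, adrenomedullin, and P4HA1, a collagen prolyl hydroxylase, were 3.09-, 2.38- and 2.01-fold lower (adjusted p = 0.0102, 0.0131 and 0.0265). FTH1, the ferritin heavy chain that stores iron and a target of NRF2, had 2982 and 3153 CPM after the NC mimic, 2386 and 2451 after miR-200a and 1187 and 1162 after miR-200a plus ELK3 (log2 fold change -1.39, standard error 0.14, adjusted p = 0.00296). With the transporter ABCC3 (2.22-fold lower, adjusted p = 0.0242) it made 2 called of 21 tested KEAP1-NRF2 genes (9.52%, against 4.79% of all tested genes). MT1X, a metallothionein that binds zinc and copper and the gene called lower of 13 metallothioneins and S100 proteins, fell from 319 and 310.3 to 85.97 and 54.1 CPM (log2 fold change -2.17, adjusted p = 0.00301). SAT1, which degrades polyamines and was the member called lower among 24 genes of polyamine and nucleotide synthesis, fell from 416 and 439.5 to 151 and 169 CPM (log2 fold change -1.42, adjusted p = 0.00383).

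Of 34 tested lysosome genes, 5 were called lower and none higher (14.7% called, against 4.79% of all tested genes, median -0.36). NPC1 and NPC2, which export cholesterol from the lysosome, were both lower. NPC1 went from 205 and 203 CPM in the NC mimic libraries to 85.02 and 63.5 with miR-200a plus ELK3, and NPC2 from 369 and 349 to 232 and 168 CPM (adjusted p = 0.00766 and 0.0369). The proteases CTSB and CTSF and the autophagy receptor SQSTM1 were 1.86-, 4.11- and 1.91-fold lower (adjusted p = 0.021, 0.0314 and 0.0158). CYP1B1, an enzyme that oxidizes estrogens and is induced by the aryl hydrocarbon receptor, was on none of the lists. It had 246 and 202 CPM after the NC mimic, 225 and 230.2 after miR-200a and 34.8 and 38.3 after miR-200a plus ELK3 (log2 fold change -2.62, standard error 0.19, adjusted p = 0.000888). The miR-200a libraries lay within the control range. Other genes with a large fall were IGFBP3, which binds insulin-like growth factors (4.68-fold, adjusted p = 0.0158), BMF, a pro-apoptotic BH3 protein (4.48-fold, adjusted p = 0.0435), BHLHE40, a transcriptional repressor of the clock and hypoxia responses (4.41-fold, adjusted p = 0.00641) and KLF7, a Krüppel-like factor (4.27-fold, adjusted p = 0.00886). MALAT1, the gene called of 17 nuclear RNAs and snoRNA hosts and the most abundant transcript in the plot of fold change by abundance, had 15077 and 15209 CPM after the NC mimic, 19076 and 19113 after miR-200a and 9865 and 8373 after miR-200a plus ELK3 (log2 fold change -0.74, adjusted p = 0.0294). The share called in that list was 5.88%, near the 4.79% of all tested genes. Without replicate 2 of the NC mimic, none of the members of the lysosome, glycolysis and hypoxia, and KEAP1-NRF2 lists was called, and without replicate 1 there were 1, 3 and 1.

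**Figure D3:**
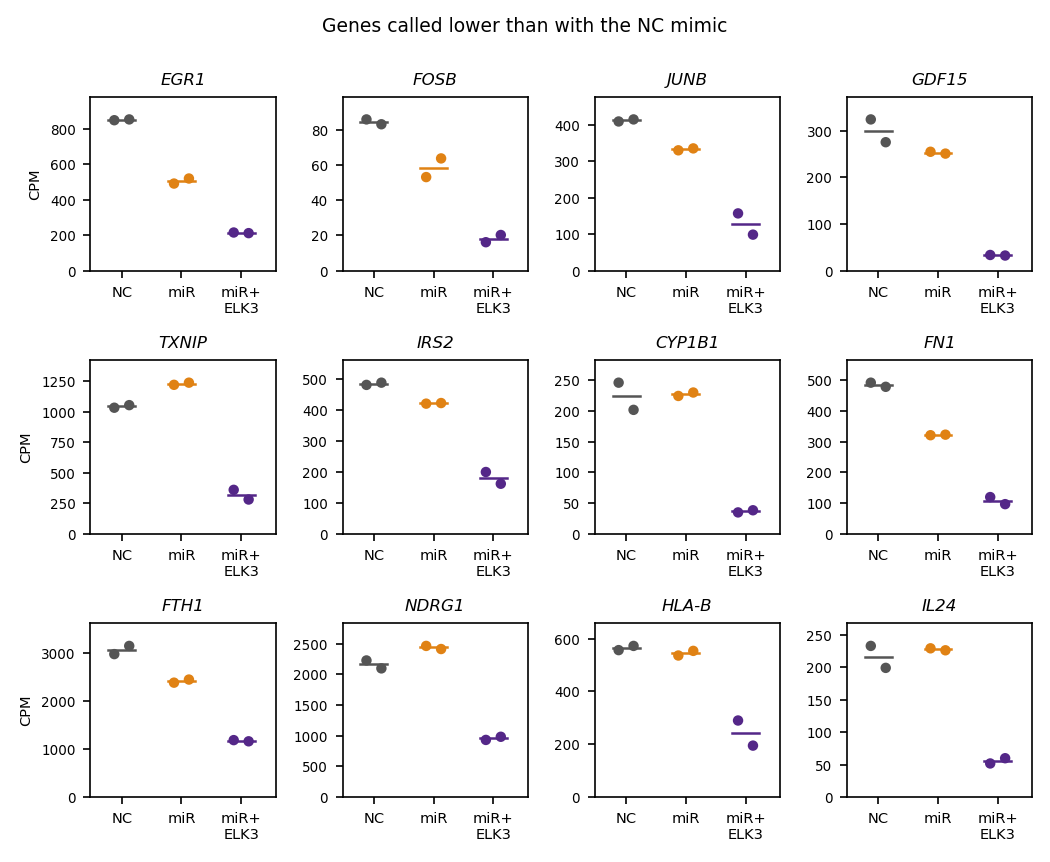
CPM (vertical axis, from 0) of 12 genes called lower with miR-200a plus ELK3 (purple) than with the NC mimic (grey), with miR-200a alone (orange) beside them. Points are libraries and lines are group means of 2 libraries. In all 12 panels both purple points lie below both grey points, while for TXNIP and NDRG1 the orange points lie above the grey ones.

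Ribosome biogenesis factors, which process ribosomal RNA and assemble the subunits in the nucleolus, were the list with the highest median (0.62, against 0.01 over all tested genes). Of 47 tested members 13 were called higher, none was called lower, and 44 had a log2 fold change above 0. EBNA1BP2 had 127 and 135 CPM after the NC mimic, 136 and 150.0 after miR-200a and 290.3 and 265 after miR-200a plus ELK3. The last 2 values lay above the other 4 (log2 fold change 1.08, standard error 0.15, adjusted p = 0.0105). MRTO4, which assembles the large subunit, had 53.4 and 46.3 CPM after the NC mimic, 42.6 and 35.3 after miR-200a and 102 and 124 after miR-200a plus ELK3 (log2 fold change 1.17, adjusted p = 0.0158). PNO1, which acts in the maturation of the small subunit, rose from 17.8 and 18.6 to 41.7 and 46.5 CPM, and RRS1 from 11.6 and 9.14 to 28.7 and 31.02 CPM (adjusted p = 0.0201 and 0.0211). DKC1, the pseudouridine synthase dyskerin, had 199.8 and 177 CPM in the NC mimic libraries and 326 and 397 with miR-200a plus ELK3 (adjusted p = 0.0213). How many members were called depended on which library was left out, while the median moved less. It was 0.68 and 0.59 without replicate 1 or replicate 2 of the NC mimic. Leaving out replicate 1 or replicate 2 of miR-200a plus ELK3 gave medians of 0.69 and 0.52. Of the cytosolic ribosomal proteins themselves, the components that these factors assemble, none of 72 was called, the median was 0.00 below the control to 2 decimals, and the 95% interval of 58 lay within 1.5-fold of the NC mimic. RPS3 had 5159 and 4117 CPM in the NC mimic libraries and 4547 and 5046 with miR-200a plus ELK3.

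Short letters in the promoters of these genes are shown because the members were higher together. Promoters of 39 of the 47 genes are in the RefSeq table (300 bases, 250 before and 50 after the start), and 17 of them (43.6%) held the E-box CACGTG, which reads the same on both strands, against 7.43% of all 27305 promoters and 10.3% of those of tested genes. The ETS-type letters CCGGAAGT, on either strand, were in 10 (25.6%), against 4.44% of all promoters and 9.39% of those of tested genes. These windows are from genes called higher, with the motif in capitals, on GRCh38.p14.
EBNA1BP2 (chr1:43172802-43172807, minus strand): attgttggcCACGTGggatcgaag
MRTO4 (chr1:19251819-19251824, plus strand): cttccgccgCACGTGgattcagcg
PNO1 (chr2:68157897-68157902, plus strand): gcagctgcgCACGTGtttcagccg
GRWD1 (chr19:48445959-48445966, plus strand): aagcgaaacCCGGAAGTgacgctctt
DDX21 (chr10:68956110-68956117, plus strand): ctgcttcccCCGGAAGTgccttgcta

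GRWD1 and DDX21, nucleolar proteins of the same list, had log2 fold changes of 1.246 and 0.62 and are named after their values were seen. Of the promoters of genes called higher, 14.9% held the E-box and 11.8% the ETS-type letters, against 9.09% and 1.65% for genes called lower. The table held promoters for 79.2% of the genes called higher and of all tested genes and for 80.9% of those called lower, and the missing ones limit what these shares can show. The E-box was also in 3 of 18 promoters (16.7%) of the immediate-early list and in 3 of 18 (16.7%) of the FOXO list, both of which had medians below 0. The windows show letters only, and binding was not measured.

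Several other lists of growth and protein maintenance had medians above 0. Over all tested genes, 2.35% were called higher and 2.44% lower. Mitochondrial ribosomal proteins had a median of 0.36 and 1 of 75 called (1.33%), a share below that over all tested genes. This member was MRPS12 (41.9 and 33.6 CPM in the NC mimic libraries and 68.4 and 84.1 with miR-200a plus ELK3, adjusted p = 0.0325). Among 28 chaperones, 5 were called higher and none lower (median 0.39). HSP90AA1, the inducible cytosolic HSP90, had 3264 and 3034 CPM after the NC mimic, 3185 and 3197 after miR-200a and 4787 and 5507 after miR-200a plus ELK3 (log2 fold change 0.71, standard error 0.14, adjusted p = 0.032). Its cochaperones AHSA1 and STIP1, the chaperonin subunit CCT6A and HSPH1, an HSP110, were 1.71-, 1.69-, 1.72- and 2.12-fold higher (adjusted p = 0.0308, 0.0337, 0.0242 and 0.012). Of 31 proteasome subunits 3 were called higher and 1 lower (median 0.38). PSMC4, PSMB7 and PSMD8 were 1.93-, 1.86- and 1.63-fold higher (adjusted p = 0.0257, 0.032 and 0.0483), while PSMA4, with a 7-base seed match in its 3′UTR, had 232 and 251 CPM after the NC mimic, 105 and 103 after miR-200a and 142 and 139 after miR-200a plus ELK3 (log2 fold change -0.78, adjusted p = 0.0291). For PSMA4 the miR-200a plus ELK3 libraries lay between the other groups.

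DNA replication genes had a median of 0.40, with 4 of 39 called higher and none lower (10.3%, against 4.79% called of all tested genes). CDC6, which loads the replicative helicase, had 36.7 and 29.04 CPM in the NC mimic libraries and 66.1 and 67.7 with miR-200a plus ELK3, and MCM3, a subunit of that helicase, 133 and 132 against 209 and 230.1 CPM (adjusted p = 0.0304 and 0.0366). MCM10, a replication factor, and FEN1, the flap endonuclease, were 1.83- and 1.80-fold higher (adjusted p = 0.0425 and 0.0268). None of 36 mitosis genes was called (median 0.10), among them TOP2A, topoisomerase II alpha, with 1669 and 1537 CPM and 1823 and 2689 CPM (adjusted p = 0.157). CTPS1 and UMPS, enzymes of pyrimidine synthesis, were 2.44- and 1.83-fold higher (adjusted p = 0.0338 and 0.0392). Of 24 ATF4 and amino-acid stress genes, 3 were called higher, the transporters SLC7A5 (44.99 and 37.9 against 95.9 and 88.6 CPM, adjusted p = 0.0158) and SLC1A5 (1.59-fold, adjusted p = 0.0477) and the proline enzyme PYCR1 (1.99-fold, adjusted p = 0.0316). The phosphatase subunit PPP1R15A and the mTOR inhibitor DDIT4 of the same list were lower by 2.23- and 1.91-fold (adjusted p = 0.00866 and 0.0145). Among 32 genes of cholesterol and fatty acid synthesis, the enzymes MVK and FADS1 were 2.32- and 1.65-fold higher (adjusted p = 0.0444 and 0.0401), while INSIG1, which retains SREBP in the endoplasmic reticulum, was 2.68-fold lower (adjusted p = 0.0172). No member of the mitochondrial ribosomal protein, chaperone, proteasome and DNA replication lists was called when either replicate of the NC mimic was left out.

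**Figure D4:**
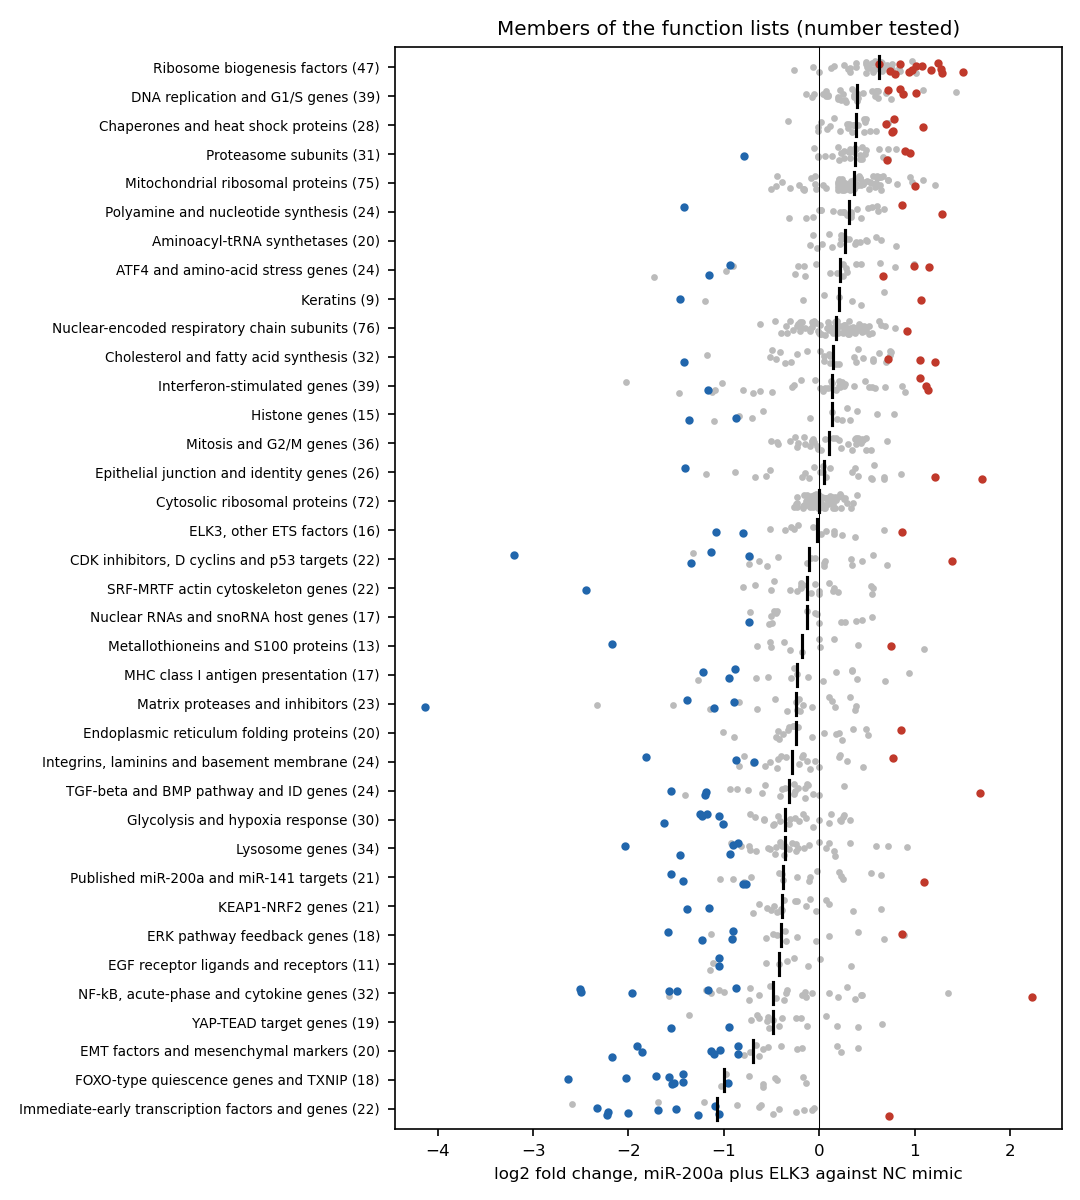
Log2 fold change of miR-200a plus ELK3 against the NC mimic for the tested members of each function list (number tested in parentheses), ordered by median. Red and blue points are members called higher and lower, grey points were not called, and black bars are medians. The medians run from -1.07 for immediate-early genes to 0.62 for ribosome biogenesis factors.

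Some of the named genes were high both with miR-200a alone and with miR-200a plus ELK3. Both are set against the same NC mimic libraries, so a low value there raises both differences. The genes are therefore described singly. LTB, lymphotoxin beta, had 4.45 and 6.20 CPM after the NC mimic, 46.3 and 44.4 after miR-200a and 69.6 and 103 after miR-200a plus ELK3. The miR-200a plus ELK3 libraries held the highest values, 16.4-fold above the control (log2 fold change 4.04, standard error 0.30, adjusted p = 0.000888). LCN2, lipocalin-2, an acute-phase protein that binds bacterial siderophores, had 6.24 and 3.92 CPM after the NC mimic, 49.00 and 51.3 after miR-200a and 25.1 and 23.97 after miR-200a plus ELK3 (log2 fold change 2.23, standard error 0.32, adjusted p = 0.0108). Here the miR-200a plus ELK3 libraries lay between the other groups. The same order was seen for MPZL2, an adhesion molecule of epithelia with the 8mer shown above, at 32.5 and 30.7 CPM after the NC mimic, 141 and 141 after miR-200a and 79.6 and 67.2 after miR-200a plus ELK3 (log2 fold change 1.21, adjusted p = 0.0158). PKP3, plakophilin-3, a protein of desmosomes, had 18.04 and 11.1 CPM after the NC mimic, 42.4 and 44.2 after miR-200a and 43.8 and 53.6 after miR-200a plus ELK3 (log2 fold change 1.71, adjusted p = 0.0158). PM20D2 had 9.13 and 7.50 CPM after the NC mimic, 38.8 and 38.9 after miR-200a and 48.8 and 24.4 after miR-200a plus ELK3, the last 2 being 2-fold apart (adjusted p = 0.0208). IFIT3 and IFIT2, genes of the interferon response, were also high with both treatments. IFIT3 had 70.6 and 77.7 CPM after the NC mimic, 156 and 159.7 after miR-200a and 174 and 155 after miR-200a plus ELK3, with the last 2 groups overlapping (adjusted p against the NC mimic = 0.012). IFIT2 had 24.1 and 24.8 CPM after the NC mimic, 43.4 and 50.9 after miR-200a and 51.6 and 54.99 after miR-200a plus ELK3 (adjusted p = 0.0216). The helicase DDX60 was 2.08-fold higher than with the NC mimic (adjusted p = 0.0317). FERMT1, kindlin-1, an activator of integrins in epithelia, rose from 17.1 and 15.7 to 54.00 and 59.9 CPM (log2 fold change 1.79, adjusted p = 0.00635), with 40.9 and 41.6 CPM with miR-200a alone. PKP3 and MPZL2 were the members called higher among 26 tested epithelial junction and identity genes, and CLDN1, claudin-1, was called lower (22.3 and 24.1 CPM against 8.76 and 8.70 CPM, adjusted p = 0.0291). The median of that list was 0.05 and fell to -0.00 with upper-quartile normalization. Of 9 keratins, KRT80 was 2.09-fold higher and KRT81 2.76-fold lower (adjusted p = 0.0317 and 0.00968). Of these genes, LTB alone was called without replicate 2 of the NC mimic.

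**Figure D5:**
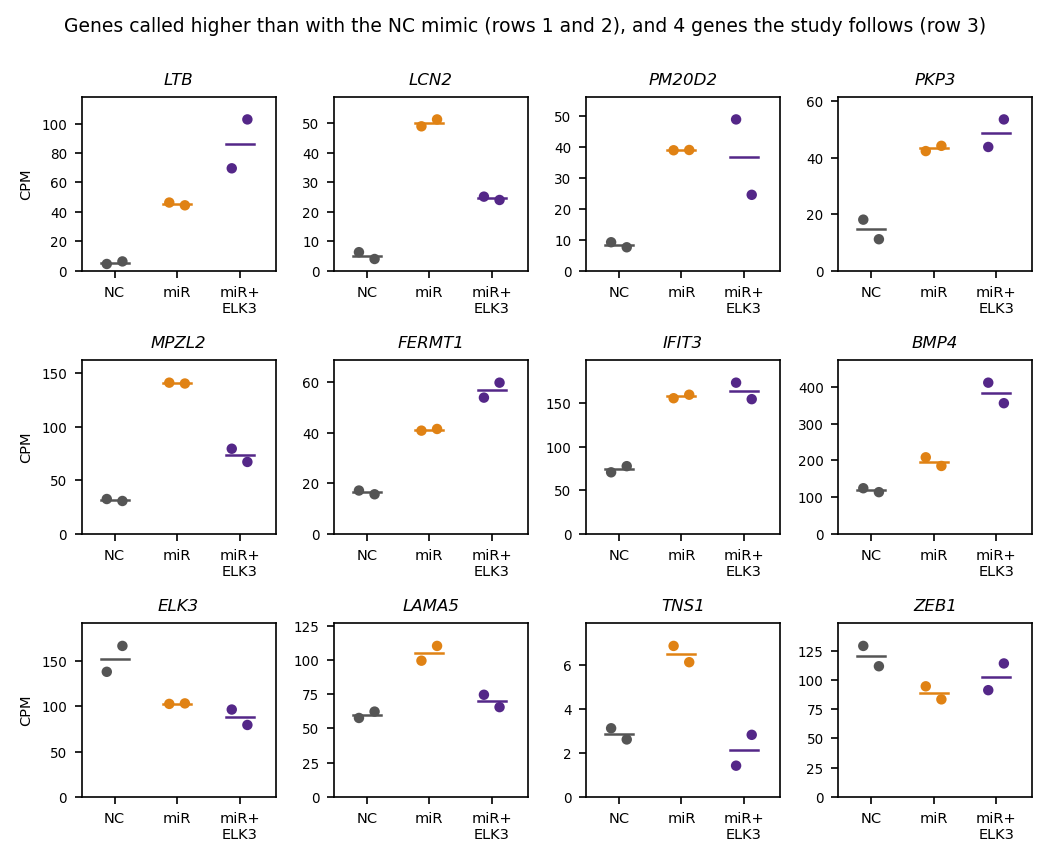
CPM (vertical axis, from 0) of 8 genes called higher with miR-200a plus ELK3 (purple) than with the NC mimic (grey) in the upper panels, and of ELK3, LAMA5, TNS1 and ZEB1 in the lowest panels, with miR-200a alone in orange. Points are libraries and lines are group means of 2 libraries. LCN2 and MPZL2 are lower in purple than in orange but above grey, and ELK3 is lowest in purple.

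Further genes with large rises had lower levels with miR-200a alone than with miR-200a plus ELK3. GPATCH4 had 73.3 and 67.5 CPM after the NC mimic, 74.1 and 73.4 after miR-200a and 183 and 251 after miR-200a plus ELK3 (log2 fold change 1.62, standard error 0.20, adjusted p = 0.00641). CCDC86, a nucleolar protein, had 40.1 and 35.2 CPM after the NC mimic, 44.02 and 44.01 after miR-200a and 106 and 118 after miR-200a plus ELK3 (log2 fold change 1.56, adjusted p = 0.00624). PTGDR2, a receptor for prostaglandin D2, and C15orf52 were 2.96- and 2.98-fold higher (adjusted p = 0.00895 and 0.00883). SFN, 14-3-3 sigma, an epithelial protein that halts the cell cycle, had 55.5 and 52.9 CPM after the NC mimic, 92.6 and 75.8 after miR-200a and 135 and 254 after miR-200a plus ELK3, without overlap between groups but far apart in the last (adjusted p = 0.0131). Others by the same rule were MYH15, SLCO4A1, AP5B1 and C9orf69, which were 4.51-, 3.25-, 3.11- and 3.08-fold higher (adjusted p = 0.0316, 0.0165, 0.0239 and 0.00887). With miR-200a alone SLCO4A1 had 31.4 and 29.5 CPM and C9orf69 56.1 and 71.1 CPM, above the 21.4 and 16.6 and the 38.3 and 32.6 CPM of the NC mimic libraries. None of these genes was called without replicate 2 of the NC mimic.

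Matches to the miR-200a seed were set beside these differences. A 3′UTR was found for 92.2% of the tested genes, and 21.7% of these held at least 1 match to bases 2 to 8 (CAGTGTT). The share was 18.3% among genes called higher and 23.3% among genes called lower, and for the 8mer it was 4.30% and 7.64%, against 5.72% of all. The median log2 fold change of miR-200a plus ELK3 against the NC mimic was -0.12 over the 647 genes with an 8mer and 0.03 over the 8854 without a match. For miR-200a alone against the same NC mimic libraries, these medians were -0.08 and 0.01. Of 21 published targets of miR-200a and miR-141, 4 were called lower and 1 higher, with a median of -0.38. They were IRS2, TGFB2, ELK3 and DLC1, a GTPase-activating protein (133 and 147 CPM after the NC mimic, 90.1 and 103 after miR-200a and 79.1 and 85.3 after miR-200a plus ELK3, adjusted p = 0.0371), and CDC25A, a phosphatase that activates CDKs and was higher (30.1 and 25.1 against 58.02 and 60.9 CPM, adjusted p = 0.0244). CDC25A carries a 7-base match in its 3′UTR and was among the genes above the control.

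The remaining lists held few calls. In the respiratory chain NDUFS6, a subunit of complex I, was the gene called of 76 tested (1.89-fold higher, adjusted p = 0.0293, list median 0.17). That was 1.32% of the list, against 4.79% called of all tested genes. None of 20 aminoacyl-tRNA synthetases was called (median 0.27), with TARS at 803 and 813 CPM and 869 and 1023 CPM. Of 20 folding proteins of the endoplasmic reticulum, CRELD2 was called higher (adjusted p = 0.0477), which was 5% of the list, with a list median of -0.24. The histone genes H1F0 and HIST1H2BK were 2.58- and 1.82-fold lower among 15 tested (adjusted p = 0.0158 and 0.0319), and S100A2, a calcium-binding protein, was 1.68-fold higher (adjusted p = 0.0381).

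A gene that was not called is not thereby at the control level. The 95% interval of the fold change lay within 1.5-fold of the NC mimic for 1671 of the 12252 genes (13.6%). Of the 9144 genes with an unadjusted p of 0.05 or more, 7473 (81.7%) had an interval that reached beyond 1.5-fold, so that a difference of that size was not excluded for them. Named genes with an interval inside 1.5-fold were DARS, CENPF, CLDN4, RPS3, TARS and AXL. DARS, an aminoacyl-tRNA synthetase, had 235 and 232 CPM in the NC mimic libraries and 206 and 242 with miR-200a plus ELK3 (95% interval of the log2 fold change -0.42 to 0.29). The 3′UTR of DARS holds an 8mer, and its level with miR-200a alone was 236 and 227 CPM. CENPF, a kinetochore protein, had 1000.4 and 1031 against 1005 and 1120.3 CPM (-0.26 to 0.38), and CLDN4, claudin-4, 179 and 192 against 208 and 182 CPM (-0.28 to 0.43). The intervals of RPS3, TARS and AXL were -0.31 to 0.40, -0.11 to 0.56 and -0.21 to 0.58.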

How the data were processed

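RNA of MDA-MB-231 cells was sequenced 48 h after transfection (QuantSeq 3′ mRNA, 2 libraries in each of 3 groups). The authors deposited 1 file per library, with raw counts by gene symbol. The submitters' processing notes name Bowtie2, edgeR and the build hg19 without versions or roles, the study names ExDEGA for its own analysis, and the counting program and its use of strand are not given in the sources used here, so overlapping and antisense genes cannot be told apart. Counts of the 286 symbols on several lines were summed (24462 symbols from 25737 lines). Groups were taken from the labels. The 4 libraries of the compared groups were fitted with edgeR 4.0.16 in R 4.3.3 (TMM, filterByExpr with a minimum count of 10, quasi-likelihood test, 2 residual degrees of freedom, Benjamini-Hochberg adjustment over the 12252 genes tested), and a gene was called at an adjusted p under 0.05. CPM used TMM factors over all 6 libraries.

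The function lists and the genes were chosen with earlier results of these data known. Genes named are ELK3, CDH1, LAMA5, TNS1 and ZEB1, the 15 largest rises and 15 largest falls among called genes with a mean log2 CPM of at least 4 and no overlap of the groups, and for each list up to 5 called members with the smallest p or, where none was called, up to 2 with the highest CPM. Lists are described by counts and medians, without a test. A few genes that this rule names are not reported here, but they are counted in their lists. The alternatives were DESeq2 1.42.0, RLE and upper-quartile normalization, other filters, all 6 libraries, a replicate block, limma 3.58.1 on quantile-normalized log2(count + 1), leaving out each library, and, added after seeing the data, a block with crossed numbers. Tested on simulated data of 12252 genes for this comparison, the fit found 40.2% of the 2-fold and 93.6% of the 4-fold differences that had been put in, with 1.55% false calls among 129. The simulated spread depended on abundance alone and was the same in both groups. In the data it was unequal between the groups, so these rates do not give the error of the calls reported here. Replicates differed by more than counting noise (chi-square per degree of freedom 2.42 in the NC mimic group and 14.2 in the miR-200a plus ELK3 group), so none was counted as a duplicate. Seed matches were searched in the longest 3′UTR of each gene (GENCODE 29), and 10958 symbols matched directly and 344 through an older symbol. Coordinates come from matches to GRCh38, not from the build of the files.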

Additional observations from a re-analysis of the deposited data

How the results depend on the processing

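The number of genes called, 587 (288 higher and 299 lower), stayed within 1.5 times with DESeq2 (609), RLE (624) and upper-quartile normalization (608) and with at least 10 counts in each library (575). Without a filter on low counts it was 1481 (762 higher and 719 lower), with all 6 libraries in a single model 1629 (876 and 753), by the unadjusted p, fold change and normalized value described above 2284 (1106 and 1178), and with limma on quantile-normalized log2(count + 1) 0 (0 and 0), with 2674 genes at an unadjusted p under 0.05 against 3108 in edgeR. Leaving out 1 library at a time gave 17 to 4097 genes, 1 to 2094 of them higher and 16 to 2003 lower. The lowest numbers came without replicate 2 of the NC mimic and the highest without replicate 1 of miR-200a plus ELK3, and the cause was not tested. Of the 134 named genes that were called, 120 lost the call without replicate 2 of the NC mimic, 74 without replicate 1, 134 with limma, 8 with upper-quartile normalization, 6 with DESeq2, and 1 each with RLE and with at least 10 counts in each library. None of these 134 changed direction in the alternatives run. For MALAT1, however, the log2 fold change ranged from -0.85 to -1.78e-15, the latter being no difference, across these settings. Of the genes named without a call, AXL, CENPF, CLDN4, DARS and RPS3 had log2 fold changes on both sides of 0 across them.

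The labels give no pairing beyond a shared number, and libraries that share a number deviated from the means of their groups with a correlation of -0.117 across genes, which are not independent replicates. With the replicate number as a block, 1232 genes were called (554 higher and 678 lower), with the block and all 6 libraries in a single model 1170 (598 and 572), and with the numbers crossed 1605 (783 and 822). All 134 named genes that were called stayed called in the 3 blocked fits.

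Depth was lowest in replicate 2 of the NC mimic (3055915 counts), and 50.1% of the symbols had enough counts to be tested. CDH1 was not among them.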
